A study of Drosophila melanogaster with 2 samples.

Results

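The 10 genes Hr4, Hr38, Hr39, Hr46, Hr51, Hr78, Hr83, Hr96, ERR and ftz-f1 encode orphan nuclear hormone receptors of Drosophila melanogaster, and all 10 had a row among the 19391 loci of the deposited expression table. They were picked out by gene name in the deposited annotation, with no threshold on expression, although the group was chosen with earlier results of these data known. The female library was made from polyadenylated RNA of whole adult females, and the male library from the same preparation of whole adult males. Both used flies aged 3 to 5 days of the same 192 lines, inbred strains of the Drosophila Genetic Reference Panel, with 200 ng of total RNA from each line. The RNA was pooled before sequencing, so nothing can be said of single lines. Values "in females" and "in males" are those of these pooled libraries. With 1 library per sex no difference given here has a replicate check, no p-value is given, and each value describes these libraries.

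Nuclear receptors are transcription factors that pair a zinc finger DNA-binding domain with a ligand-binding domain, and they are called orphan where no hormone was known for them when they were found. In the fly, pulses of the steroid ecdysone act through EcR and its partner usp, and several orphan receptors form the cascade of early and late genes that follows each pulse before metamorphosis. Others are better known for metabolism, such as ERR in carbohydrate use and Hr96 in lipid and sterol balance, or for the reproductive tract, such as Hr39. The expression unit is FPKM, the number of fragments per kilobase of transcript, scaled to the number of fragments of the library, so levels of different genes can be set side by side per length.

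The receptors fell into 5 genes that reached 5 FPKM in both libraries and 5 lower ones. The higher genes, ftz-f1, Hr78, Hr96, ERR and Hr39, made up 97.6% of the summed FPKM of the 10 in females and 90.4% in males. Their levels lay between 17.99 and 64.02 FPKM in females and between 9.39 and 27.6 FPKM in males. Among all 13888 annotated protein-coding genes they stood between percentiles 39.6 and 87.3. The lower genes, Hr46, Hr4, Hr38, Hr51 and Hr83, had between 0.0423 and 2.13 FPKM in females and between 0.0850 and 5.84 FPKM in males, at percentiles between 3.61 and 36.1. In the female library the order from high to low was ftz-f1, Hr78, Hr96, ERR, Hr39, Hr46, Hr4, Hr38, Hr51, Hr83, and in males it was ERR, Hr78, ftz-f1, Hr96, Hr39, Hr46, Hr38, Hr51, Hr4, Hr83. Without replicates it cannot be said which neighbours in these orders differ beyond their spread.

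**Figure D1:**
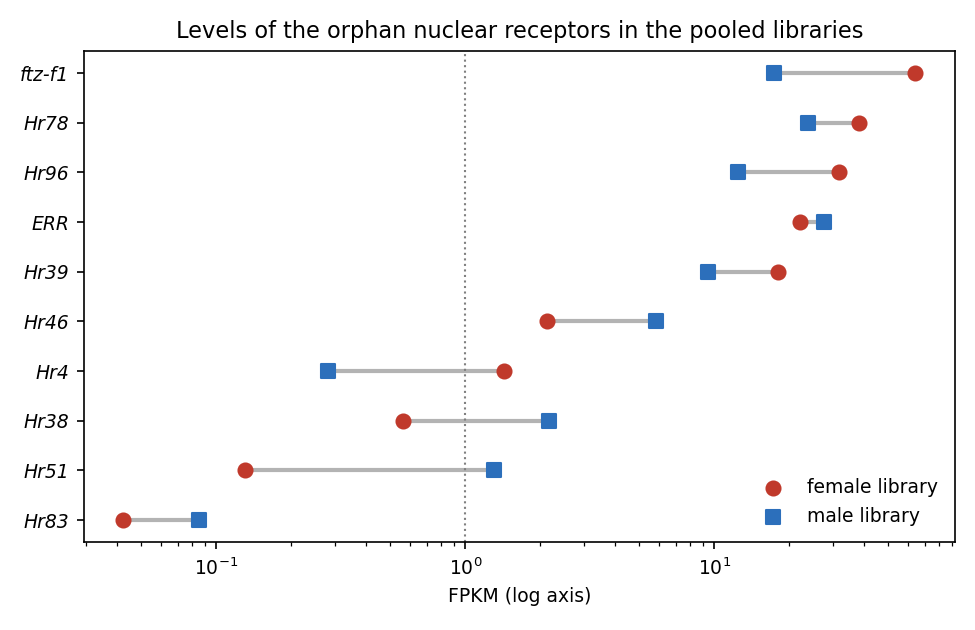
FPKM on a log axis for each of the 10 receptors, with a red circle for the female library and a blue square for the male library; the dotted line marks 1 FPKM. The 5 upper genes lie above 9 FPKM in both libraries, and the red circle lies right of the blue square for 5 of 10 genes.

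The sex difference was measured as log2((female FPKM + 1)/(male FPKM + 1)), called the log2 ratio below, which understates the difference of low genes. A difference was counted where it reached 2-fold on this scale among loci with at least 1 FPKM in 1 library. Of the 10 receptors 9 passed that minimum. Hr4 passed through females alone, and Hr38 and Hr51 through males alone, so the counts over the 9 are a description and support nothing. Levels at least 2-fold higher in females were listed for ftz-f1 and Hr96, which is 2 of 9 (22.2%), against 21.5% of the 14108 loci tested. Levels at least 2-fold higher in males were listed for Hr38, Hr46 and Hr51, which is 3 of 9 (33.3%), against 40.7% of all loci tested. Both shares were near the background, and near the 23.2% and 38.1% of annotated protein-coding genes, so the counts are not a result about these receptors.

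The gene ftz-f1 encodes a receptor first known as a cofactor of the segmentation protein Ftz in the embryo, and later as the factor that sets the competence of tissues for the prepupal ecdysone pulse. It lies on arm 3L (18743608 to 18794409, minus strand, build BDGP5). It had 64.02 FPKM in females, against 17.4 FPKM in males. This was the highest level of the 10 receptors in females and the third in males. The fold was 3.67 on the FPKM values, and the log2 ratio was 1.82, the largest of the 10 in either direction on the values as deposited. Its sign could not turn under the alternatives, since the scalings used shift a ratio by less than 2-fold and the rest keep the sign. The log2 ratio ran from 0.89, under 2-fold, with ribosomal protein genes set to equal medians, to 2.29 with the libraries scaled to the same sum.

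The closest relative of ftz-f1 in the fly is Hr39, which is needed for the secretory cells of the spermathecae, the sperm storage organs of the female. Hr39 (2L, 21237250 to 21259675, plus strand) had 17.99 FPKM in females and 9.39 FPKM in males. Its log2 ratio of 0.87 was under the 2-fold threshold, and it became −0.03 with ribosomal protein genes at equal medians and 1.32 with the libraries scaled to the same sum. The secretory proteases Send1 and Send2 of the spermathecae served as markers of those cells. Send1 had 19.3 FPKM in females and 0.264 FPKM in males, and Send2 had 1.85 FPKM in females and 0.366 FPKM in males. Send1 was 72.9-fold and Send2 5.07-fold higher in females, Send2 falling under 2-fold on the log2 scale with a pseudocount of 5 FPKM, when centred and with ribosomal protein genes at equal medians. The part of these cells in the Hr39 values was not tested.

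Hr96 binds sterols and controls genes of dietary lipid uptake and of the response to foreign compounds. It lies on 3R (20850957 to 20855073, plus strand) and has a single transcript. Its level was 31.8 FPKM in females, against 12.5 FPKM in males, a fold of 2.55 and a log2 ratio of 1.28. Across the alternatives, none of which could turn its sign, the log2 ratio ran from 0.37 to 1.75. The lowest, under 2-fold, was with ribosomal protein genes at equal medians and the highest with equal sums. Of 6 genes of lipid uptake of the kind Hr96 controls, 1 was at least 2-fold higher in females and 1 in males, against 21.5% and 40.7% of all loci tested, and with ribosomal protein genes at equal medians 4 passed toward males. Their median log2 ratio was −0.46, against −0.58 over all loci tested, and it became 0.04 with the libraries scaled to the same sum. The gene mag, which encodes an intestinal lipase and cholesterol esterase, had 65.9 FPKM in females and 89.4 FPKM in males. Npc1b, needed for sterol uptake in the midgut, had 9.79 FPKM in females and 6.505 FPKM in males. Of the small sterol-binding proteins, Npc2d had 40.04 FPKM in females and 56.3 FPKM in males, while Npc2e had 38.7 FPKM in females and 5.82 FPKM in males, a log2 ratio of 2.54. The gene past 2-fold toward males was CG31091, with 1.11 FPKM in females and 11.2 FPKM in males. CG31091, as well as tai, Eip93F and sad, were named after their values were seen.

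Hr78 is needed for larval growth and binds many ecdysone-regulated loci on the larval chromosomes. It lies on 3L (21487119 to 21490594, minus strand) and had 38.0 FPKM in females and 23.8 FPKM in males. The log2 ratio was 0.66, under 2-fold. It became −0.28 with ribosomal protein genes at equal medians and 1.14, past 2-fold, with equal sums. Its partner protein Moses, annotated here as Samuel, had 8.76 FPKM in females and 8.11 FPKM in males. Samuel was named after its values were seen.

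ERR, the estrogen-related receptor, switches carbohydrate metabolism toward glycolysis and biosynthesis in growing larvae. It lies on 3L (8176461 to 8179771, minus strand), and it had 22.0 FPKM in females and 27.6 FPKM in males. It was the highest of the 10 receptors in males and the only 1 of the 5 higher genes with a negative log2 ratio, −0.32. That sign turned to 0.17 with equal sums, and the value became −1.26 with ribosomal protein genes at equal medians. Of 13 enzymes of glycolysis and the pentose phosphate pathway, the class that ERR drives in larvae, 6 were at least 2-fold higher in males and 0 in females, with 1 library per sex and no test. The share higher in males, 46.2%, was near the 40.7% of all loci tested, so that count is not a result about these enzymes. Toward females, where 0 passed, the share over all loci tested was 21.5%. With equal sums 3 passed toward males and 1 toward females, and with ribosomal protein genes at equal medians 11 toward males. The median log2 ratio was −0.92, against −0.58 over all loci tested. The aldolase gene Ald had 427 FPKM in females and 1658 FPKM in males. Gapdh1 had 567 FPKM in females and 1149 FPKM in males, and Eno had 570 FPKM in females and 675 FPKM in males. Gapdh2 went the other way, with 946 FPKM in females and 532 FPKM in males. Gapdh1 and Gapdh2 are similar copies, so how fragments were divided between them is uncertain. Muscle markers, given below, were also higher in males, and their part in these values was not tested.

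Of the lower receptors, Hr46, Hr38 and Hr51 had their higher FPKM in males. Their percentiles among annotated protein-coding genes went the other way and were lower in males. Hr46 stood at 36.07 in females and 30.26 in males, Hr38 at 26.61 and 17.43, and Hr51 at 17.09 and 13.95. Of all the orphan receptors only ERR had its higher percentile in males, at 62.64 in females and 66.65 in males. Hr46, also known as DHR3, turns on ftz-f1 after the pulse of ecdysone that starts metamorphosis. It lies on 2R (6091617 to 6124853, minus strand) and had 2.13 FPKM in females and 5.84 FPKM in males, a log2 ratio of −1.13. With a pseudocount of 5 FPKM it was −0.61 and with equal sums −0.71, both under 2-fold. This direction is opposite to that of ftz-f1 in the same libraries. The annotated gene CG12912 lies on the same strand with all of its 6466 exonic bases inside Hr46 exons, and it was listed at 5.08e-62 FPKM in females and 0.925 FPKM in males. Fragments of either gene cannot be assigned with certainty. Their summed level was 2.13 FPKM in females and 6.77 FPKM in males, a log2 ratio of −1.31, a sum chosen after seeing the data.

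Hr38 is induced in the adult brain by neuronal activity, and its protein can pair with Usp. It lies on 2L (20683462 to 20714667, minus strand), and it had 0.561 FPKM in females and 2.17 FPKM in males. The fold was 3.86 on the FPKM values, toward males, and the log2 ratio was −1.02, which became −0.37 with a pseudocount of 5 FPKM and −0.69 with equal sums. Of 5 activity-induced genes, 2 (40%) were at least 2-fold higher in males, against 40.7% of all loci tested, and the median log2 ratio was −0.76, against −0.58 over all loci. The count was 1 with equal sums and 4 with ribosomal protein genes at equal medians. They were kay, the fly Fos, with 33.5 FPKM in females and 71.9 FPKM in males, and Arc1, with 59.5 FPKM in females and 171 FPKM in males. Jra, the fly Jun, had 33.7 FPKM in females and 27.002 FPKM in males, and cbt had 32.02 FPKM in females and 41.998 FPKM in males.

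Hr51, also called unfulfilled, acts in neurons of the mushroom body and of the circadian clock. It lies on 2R (11217846 to 11226825, plus strand) and had 0.130 FPKM in females and 1.30 FPKM in males. This was the largest fold of the 10 receptors toward males, 10.03 on the FPKM values, but only −1.03 as a log2 ratio, because the pseudocount exceeds the female level. With a pseudocount of 0.1 FPKM the log2 ratio was −2.61, and with 5 FPKM it was −0.30. With the libraries scaled to the same sum Hr51 no longer reached 1 FPKM in 1 library.

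Hr4 acts in the prothoracic gland of the larva, where it holds back ecdysone production, and represses early genes in the prepupa. It is the only X-linked gene among the 10 (1835973 to 1901989, plus strand). Hr4 had 1.42 FPKM in females and 0.280 FPKM in males. The fold of 5.09 on the FPKM values was the largest toward females among the 10. The log2 ratio of 0.92 stayed under the threshold, and it was 2.005 with a pseudocount of 0.1 FPKM and 0.28 with a pseudocount of 5 FPKM.

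Hr83 was at the floor of both libraries. This gene (3R, 2174965 to 2176234, plus strand) is the shortest of the 10, with 837 exonic bases in 2 exons. It had 0.0423 FPKM in females and 0.0850 FPKM in males, and did not enter the counts. A common step was found in the low values of the female library, 0.0126 FPKM times kilobases for each fragment. It put the female value of Hr83 at about 2 fragments, so no difference between the libraries can be read from that value. By the same estimate Hr51 rested on 17 to 30 fragments in females, Hr38 on 308 to 338, Hr4 on 928 to 1403 and ftz-f1 on 15280 to 29424, depending on which transcript length applies. No such step was found in males, where the search kept the length correction of 110 bases fitted in females. The fragments behind male values are thus unknown.

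The genes themselves were long. The median span of the 10 was 15703 bases, against 2146.5 bases for annotated protein-coding genes, and 5 of them spanned over 20 kb. The median exonic length was 4035.5 bases against 1719 bases. The 5 receptors with higher levels had a median span of 4117 bases and the 5 lower ones a median of 31206 bases, although ftz-f1, the highest in females, spans 50802 bases. The deposited annotation held 36 annotated transcripts of the 10 genes, from 9 for Hr4 to 1 each for Hr51, Hr83 and Hr96. Hr4 transcripts had 8 distinct coding lengths, from 4557 to 6372 bases. Annotated transcripts of ftz-f1 had 3 start sites and 2 coding lengths, 3084 and 2412 bases, the longer one in the transcript that starts farthest upstream. Gene-level FPKM does not say which of these forms was present.

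The genes ftz-f1, Hr38 and Hr51 also had a transcript model that the authors' Cufflinks assembly added to the annotation, 1 each. All 3 models used only splice junctions that are also in annotated transcripts of the same gene. The ftz-f1 model had 5 exons and 3122 bases and began at 18747851, inside the gene, so it held the 3′ part only. The Hr38 model differed in 79 bases outside annotated exons. The Hr51 model was 2973 bases long, with 1338 bases outside the exons of the annotated transcript, which itself holds the 1749 coding bases and nothing else. Since FPKM divides by transcript length, the level of Hr51 depends on which of its models received the fragments.

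**Figure D2:**
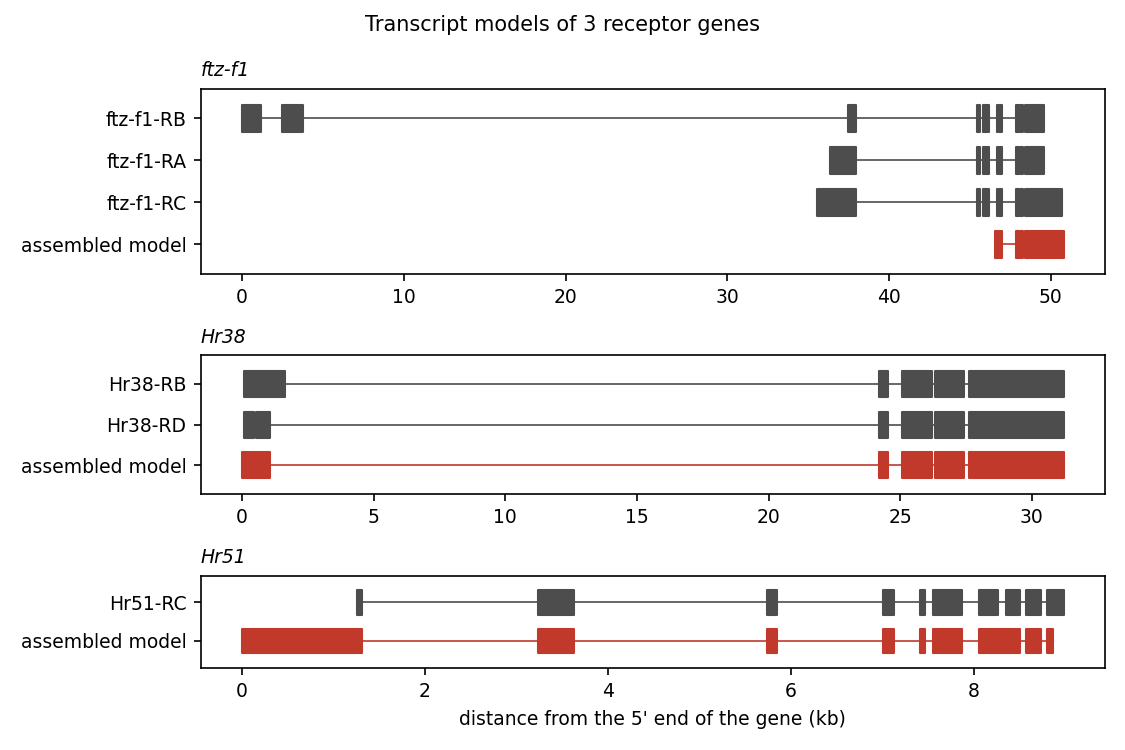
Transcript models of ftz-f1, Hr38 and Hr51, drawn 5′ to 3′ with distance from the 5′ end of each gene in kb; boxes are exons, grey for annotated transcripts and red for the model added by assembly. The red model of ftz-f1 covers the 3′ end only, and that of Hr51 has a long exon before the annotated start.

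Exons of 4 receptors overlapped those of another annotated gene. Beside CG12912 on Hr46, the genes CG4406, CG2617 and CG7979 on the opposite strand shared 46 bases with Hr4, 168 bases with Hr38 and 9 bases with ERR. CG2617 had 16.2 FPKM in females and 7.74 FPKM in males, so its direction was opposite to that of Hr38. CG4406 had 31.99 FPKM in females and 23.3 FPKM in males, and CG7979 had 20.2 FPKM in females and 14.9 FPKM in males. The sources used here do not say whether strand was used in counting, so reads in the shared bases cannot be told apart.

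The other 11 nuclear receptor genes of the fly were set beside the 10. This split follows the list of names used here, and is not one between receptors with and without a known hormone. Of 10 tested, 2 were at least 2-fold higher in females and 4 in males, again near the background. The median log2 ratio was −0.86 for these and 0.66 for the 9 orphan receptors tested, against −0.58 over all loci tested. Of the other receptors knrl, dsf and eg passed the minimum through males alone. With 1 FPKM required in each library, 6 orphan receptors were left, with a median of 0.76, against 0.17 over all loci left. Of the other receptors 7 were left, and the middle log2 ratio was that of Hnf4, −0.29. With the minimum again in 1 library and ribosomal protein genes at equal medians, the medians were −1.55 for the other receptors and −0.28 for the orphan receptors. The pair that forms the ecdysone receptor was on the same side as ftz-f1 and Hr96. EcR had 25.6 FPKM in females and 7.91 FPKM in males, a log2 ratio of 1.58. Its partner usp had 54.5 FPKM in females and 16.3 FPKM in males, a log2 ratio of 1.68. With ribosomal protein genes at equal medians both were under 2-fold, at 0.69 for EcR and 0.75 for usp. Of the ecdysone-induced receptors, Eip75B had 19.8 FPKM in females and 21.5 FPKM in males, and Eip78C had 1.39 FPKM in females and 3.63 FPKM in males. Hnf4, a regulator of fat breakdown and glucose homeostasis, had 34.2 FPKM in females and 41.96 FPKM in males, and was the highest of all 21 nuclear receptors in males. In the female library the highest of the 21 was ftz-f1.

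The remaining receptors are best known from development, and apart from svp they were low. The gene svp, needed for photoreceptor and heart cell identity, had 7.76 FPKM in females and 21.1 FPKM in males, a log2 ratio of −1.33. The segmentation gene kni had 1.66 FPKM in females and 4.89 FPKM in males, and its relative knrl had 0.990 FPKM in females and 3.13 FPKM in males. The neuronal identity gene eg had 0.127 FPKM in females and 1.86 FPKM in males, a fold of 14.6 toward males. With equal sums svp, kni and knrl were under 2-fold, at log2 ratios of −0.85, −0.74 and −0.69. With a pseudocount of 5 FPKM kni, knrl and eg were, at −0.57, −0.44 and −0.42. The sex-behaviour gene dsf had 0.195 FPKM in females and 1.04 FPKM in males, and tll was at the floor with 0.0468 FPKM in females and 0.0549 FPKM in males.

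**Figure D3:**
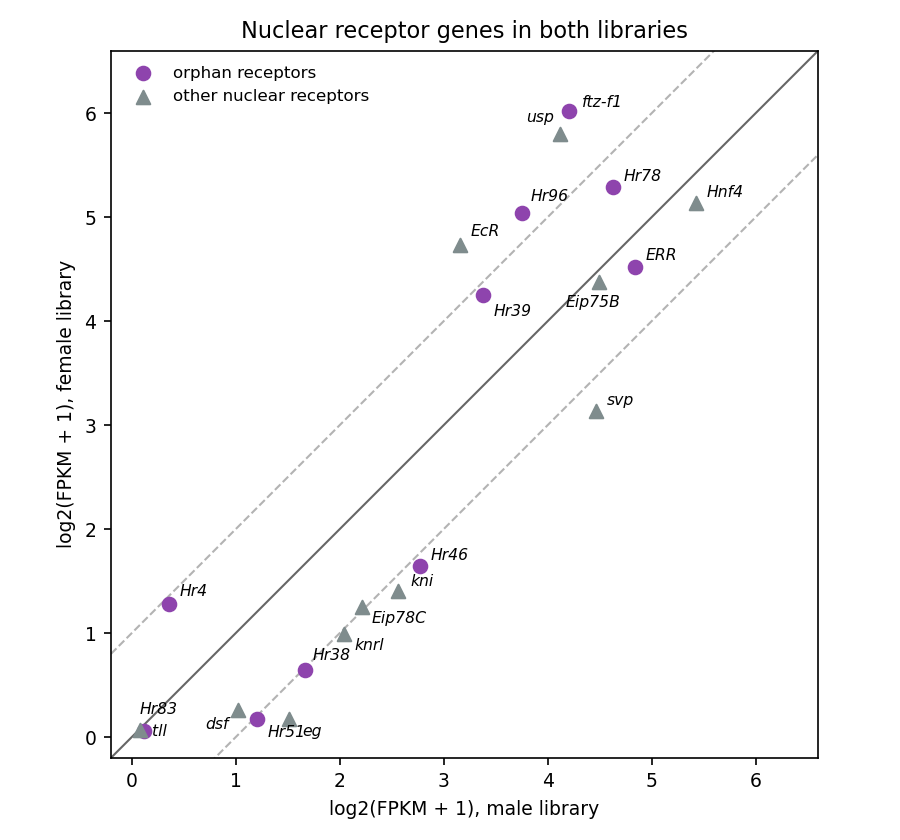
Log2(FPKM + 1) in females (vertical) against the male library (horizontal) for all 21 nuclear receptor genes, with orphan receptors as purple circles and the others as grey triangles. The solid line marks equality and the dashed lines a 2-fold difference; ftz-f1, usp, Hr96 and EcR lie above the upper dashed line.

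Proteins that work with nuclear receptors leaned to the female library. Of 16 tested among 17 partners and coregulators, 12 were at least 2-fold higher in females and 0 in males. Over all loci tested the shares were 21.5% toward females and 40.7% toward males, with no test possible. The median log2 ratio was 1.74, and it was 0.88 with ribosomal protein genes at equal medians, when 6 genes passed toward females and 1, tai, toward males. The corepressor gene CtBP had 167 FPKM in females and 57.2 FPKM in males. E(bx), the large subunit of the NURF chromatin remodeller, had 110 FPKM in females and 28.1 FPKM in males. The median was farther toward females than that of the receptors, and mbf1, which links Ftz-F1 to the transcription machinery, was nearly level, at 106 FPKM in females and 83.1 FPKM in males. The gene alien, a corepressor, had 72.4 FPKM in females and 36.3 FPKM in males.

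Targets and makers of the hormone were mixed. Of 8 ecdysone-induced genes tested of 11, 3 were at least 2-fold higher in males and 0 in females, with a median log2 ratio of −0.54. Both the share higher in males, 37.5%, and the median were near the 40.7% and −0.58 of all loci tested. Toward females, where 0 passed, the share over all loci tested was 21.5%. With equal sums 1 passed in each direction, and with ribosomal protein genes at equal medians 5 passed toward males. Among them Eip63F-1 had 12.9 FPKM in females and 40.7 FPKM in males, and Eip71CD had 61.5 FPKM in females and 135 FPKM in males. The third, Eip93F, had 6.70 FPKM in females and 16.7 FPKM in males. Eip55E had 97.4 FPKM in females and 49.8 FPKM in males, and ImpL2, a secreted inhibitor of insulin-like peptides, had 41.1 FPKM in females and 62.6 FPKM in males. Of 6 ecdysone synthesis enzymes tested of 7, 3 were at least 2-fold higher in females and 1 in males, against 21.5% and 40.7% of all loci tested. With ribosomal protein genes at equal medians 2 passed toward females and 1 toward males, and with equal sums 3 and 0. The enzyme gene spo had 3.11 FPKM in females and 0.303 FPKM in males, and sro had 3.39 FPKM in females and 0.555 FPKM in males, each higher in females. The third, sad, had 1.94 FPKM in females and 0.469 FPKM in males, a log2 ratio of 1.002. The genes spo, sro and sad passed the minimum of 1 FPKM through females alone, so their count is a description and supports nothing. With a pseudocount of 5 FPKM they were under 2-fold, at log2 ratios of 0.61, 0.60 and 0.34. The last enzyme, shd, which makes the active hormone in target tissues, had 1.10 FPKM in females and 3.47 FPKM in males. The gene nvd had 3.31 FPKM in females and 2.43 FPKM in males.

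All 41 tissue markers chosen to check the whole-body label were above 0 in both libraries, and their part in the receptor values was not tested. The 5 ovary germline markers summed to 6026 FPKM in females and 86.0 FPKM in males, with osk, nos, dhd and vas the highest by mean. The 5 markers chosen for follicle cells summed to 6636 FPKM in females and 358 FPKM in males, led by Yp1. That gene alone had 4160 FPKM in females and 189 FPKM in males, and whether it came from follicle cells only was not tested. In males Cp38 had 72.3 FPKM, Cp36 47.7 FPKM and Vm26Aa 41.1 FPKM, against 980, 701 and 675 FPKM in females. The source of this signal in the male library was not tested. Testis markers summed to 1.98 FPKM in females and 2521 FPKM in males, and accessory gland markers to 4.44 FPKM in females and 10735 FPKM in males. Markers of tissues that both sexes have were mostly higher in males: all 6 neuronal markers were (65.6 FPKM in females and 221 FPKM in males summed, median log2 ratio −1.51), and all 5 muscle markers (368 FPKM in females and 1532 FPKM in males, median −2.16). The 5 gut markers summed to 3679 FPKM in females and 6661 FPKM in males and the 5 fat body markers to 1018 FPKM in females and 1241 FPKM in males. Over all loci 61.5% were lower in females, and the median log2 ratio of loci tested was −0.58. The fat body markers differed in direction, 4 being lower in females and 1 higher. The higher one, Lsd-2, had 419 FPKM in females and 180 FPKM in males, a log2 ratio of 1.22. In whole flies, fewer cells of a type and less RNA per cell cannot be told apart. FPKM is also scaled to the fragments of each library, so these values are shares and not amounts per fly.

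**Figure D4:**
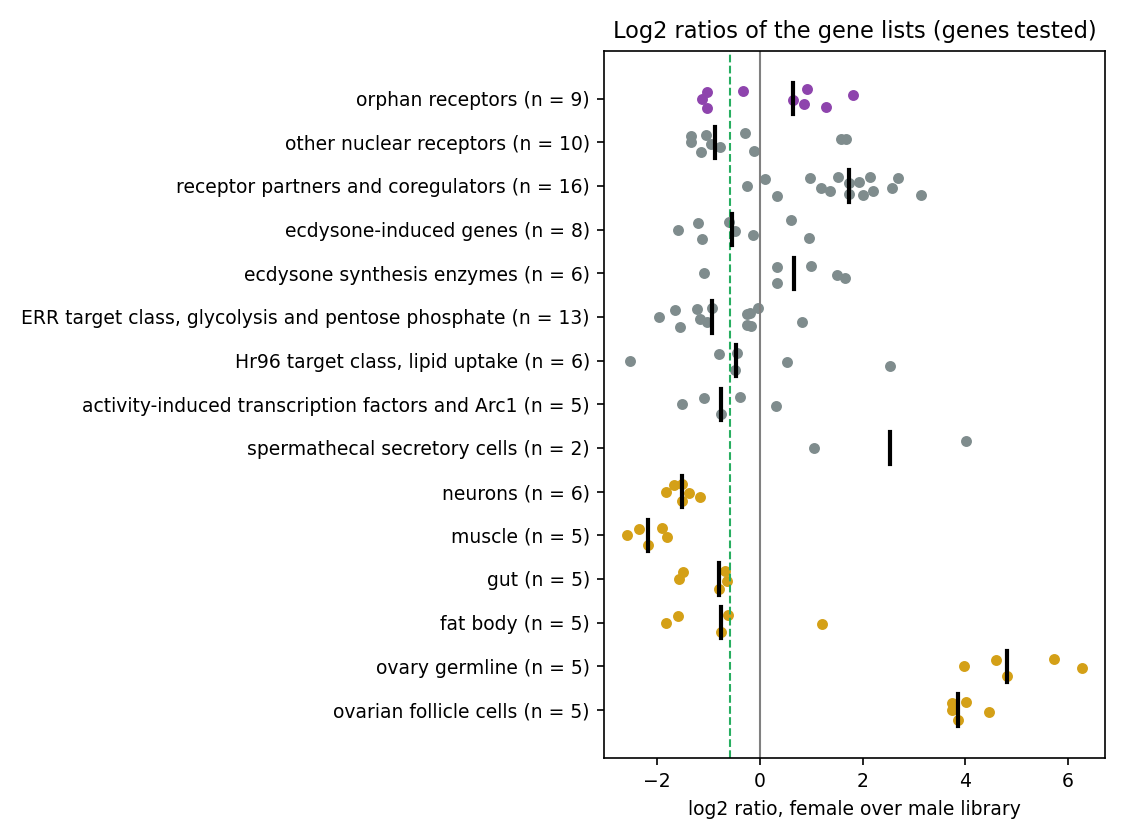
Log2 ratio, female over male library, of each gene tested in the lists, with orphan receptors in purple, other lists in grey and tissue markers in yellow; black bars are list medians and the green dashed line is the median of all loci tested, −0.58. Testis and accessory gland markers, with medians of −8.40 and −8.88, lie off the axis and are not drawn.

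The counts of called receptors depended on how the libraries were scaled to each other. The summed FPKM differed, at 669223 in females and 951735 in males. With both set to the same sum, the median over all loci tested moved by 0.49, female-higher loci made up 50.3% of calls in place of 34.6%, and 5 receptors (Hr4, Hr39, Hr78, Hr96 and ftz-f1) passed toward females and 0 toward males. With the ribosomal protein genes at equal medians, the median over all loci tested moved by −0.71, female-higher loci made up 12.7% of calls, and 0 receptors passed toward females and 4 toward males (Hr38, Hr46, Hr51 and ERR). Relative to the median of all loci tested on the values as deposited, ftz-f1 stood at 2.398, Hr96 at 1.86 and Hr4 at 1.501. Hr39 stood at 1.45, Hr78 at 1.23 and ERR at 0.26, while Hr38, Hr51 and Hr46 stood at −0.44, −0.45 and −0.55. That median, −0.58, includes loci that passed the minimum through 1 library alone. The 9805 loci reaching 1 FPKM in each library had a median of 0.17. Relative to 0.17, ftz-f1 stood at 1.65, Hr96 at 1.12, Hr39 at 0.70 and Hr78 at 0.49. On the same scale ERR stood at −0.48 and Hr46 at −1.30, so the side of ERR depended on the median used.

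**Figure D5:**
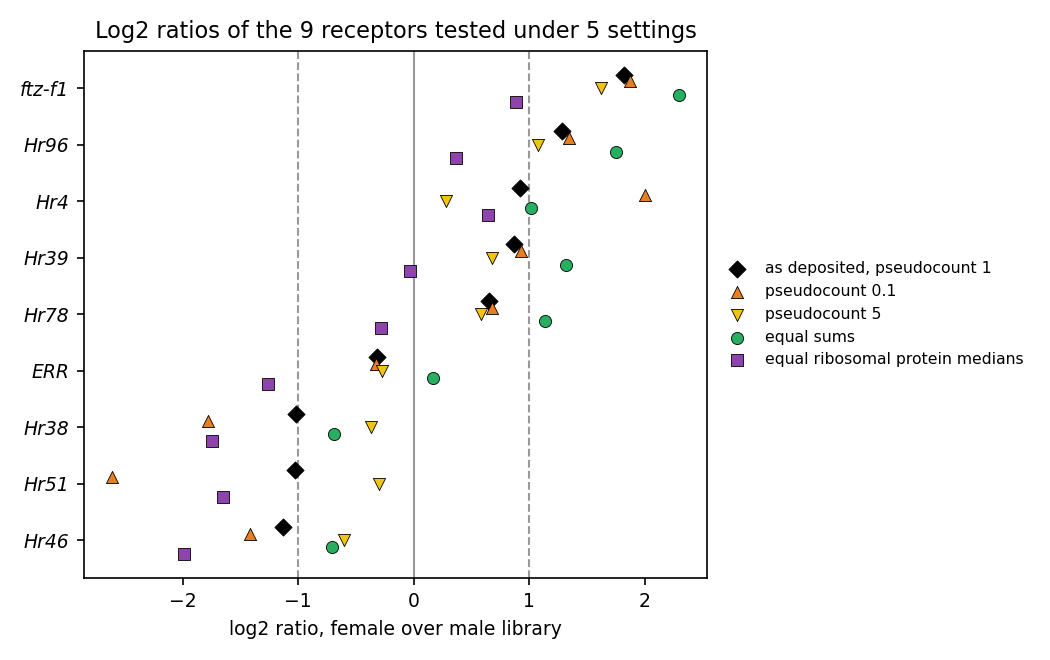
Log2 ratio, female over male library, of the 9 receptors tested as deposited (black diamonds), with other pseudocounts (triangles) and with other scalings of the libraries (circles and squares); dashed lines mark 2-fold. Only ERR, Hr39 and Hr78 have points on both sides of 0, and Hr51 has no circle because it fell below the minimum there.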

How the data were processed

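RNA of whole females and of whole males was sequenced as 1 pooled library per sex, in 1 lane, per the labels. The authors deposited a table of FPKM and an annotation of transcript models; TopHat2 2.0.8, Cufflinks 2.0.2 and build BDGP5 are named in the submitters' processing notes. Exon starts and ends in the deposited annotation were used for lengths and overlaps. Use of strand and filters are not given in the sources used here. Values were analysed as deposited with Python 3.11.15, numpy 2.4.6 and pandas 2.3.3, and drawn with matplotlib 3.10.9. The log2 ratio used a pseudocount of 1 FPKM, a locus entered when either library reached 1 FPKM, and 2-fold was the threshold, without a p-value. The members and gene lists were chosen with earlier results of these data known. All 21 nuclear receptors were named, and from other lists at most 4 genes with the highest mean log2(FPKM + 1) over both libraries, apart from genes said in the text to be named after their values were seen. Depth was sought from a common step in low values of loci with 1 transcript and at least 1000 bases: in the female library 220 of 376 checked values (58.5%) were within 0.15 steps of an integer multiple (30% expected by chance), and in the male library 27 of 92 (29.3%). Whole fragments were thus not recovered and no count test was made. The fragment numbers given are estimates. Alternatives were other pseudocounts, minimum levels, scalings and fold thresholds.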

Additional observations from a re-analysis of the deposited data

How the results depend on the processing

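The number of receptors at least 2-fold higher in females, 2 as deposited, became 5 with equal sums and with a fold threshold of 1.5, and 0 with ribosomal protein genes at equal medians and with a threshold of 4. The number at least 2-fold higher in males, 3 as deposited, became 0 with a pseudocount of 5 FPKM, with equal sums and with a threshold of 4, and 1 where 1 FPKM was required in both libraries or 5 FPKM in 1. The median log2 ratio of the receptors tested, 0.66, became 0.28 with a pseudocount of 5 FPKM, 0.30 with no filter, 0.76 with either stricter filter, 1.08 with equal sums and 0.49 when centred on the loci that reached 1 FPKM in both, and it turned to −0.28 with ribosomal protein genes at equal medians. Each follows from how the alternative is built: fewer genes entered, a larger pseudocount shrank low genes, a scaling shifted every gene, or the threshold itself moved. No named gene past 2-fold as deposited changed sign under these alternatives, and none could. The scalings used shift a ratio by less than 2-fold, and the other alternatives keep the sign. With 1 library per sex no replicate could be left out, and no depth was found for the male library, so the precision of male values is unknown. No paired analysis was possible because each group has 1 library.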

Other observations

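Introns of the receptor genes held 7 further loci of the deposited annotation that share no exon base with the receptor, and all 7 were lower in females, as were 66.3% of all loci under 1 FPKM in both libraries. Of the 7, 1 (CR44187) reached 1 FPKM in a library, so the others did not enter the counts. Among the 7, 5 were unannotated models with 1 transcript and no strand, 2 each in Hr4 and Hr39 and 1 in Hr51. The Hr51 locus (2R, 11221633 to 11222218) had 0.0280 FPKM in females and 0.607 FPKM in males, the same side as Hr51 itself. The Hr4 loci had 0 and 0.0162 FPKM in females against 0.196 and 0.2395 FPKM in males, while Hr4 was higher in females. The Hr39 loci had 0.180 and 0.321 FPKM in females against 0.596 and 0.629 FPKM in males, also opposite to Hr39. The other 2 were noncoding RNA genes on the strand opposite to Hr38: CR44187 was listed at 0 in females and at 1.06 FPKM in males, and CR44188 had 0.0671 FPKM in females and 0.189 FPKM in males.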
